A study of Mus musculus with 13 samples.

Results

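The airway lining of the mouse lung is built mainly from club cells and ciliated cells. A set of 8 genes that mark these cells was followed here in melanoma cells sorted from lung metastases: Scgb1a1, Scgb3a1, Scgb3a2, Cyp2f2 and Cbr2 for club cells, and Foxj1, Tppp3 and Ccdc153 for ciliated cells. They are 8 of the 22656 genes in the deposited table, and all 8 were found there by symbol. Cbr2, Scgb3a2 and Foxj1 were selected on their measured values, that is on the pattern of their normalised counts between the genotypes, so their genotype differences are given as descriptions without a test. The other 5 were tested.

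The cells were B16F10-TR-shApoe, a derivative of the mouse melanoma line B16F10 with a hairpin RNA against Apoe, and both groups received these cells. The hosts were knock-in mice, 8 carrying human APOE2 and 5 carrying human APOE3, with 1 library per mouse. Lungs were taken 15 days after injection into the tail vein and digested with collagenase, and cells low in the dead-cell dye TO-PRO-3, without CD45 and with GFP were sorted. Age, sex and strain background of the hosts are not given in the sources used here. The lungs of the hosts keep their own airway cells, and the sort selects by GFP and CD45 and not by an epithelial antigen.

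Club cells are secretory cells of the bronchioles. They release secretoglobins, small proteins of the airway lining fluid, and carry cytochrome P450 and reductase enzymes that metabolise inhaled compounds. Ciliated cells carry motile cilia that move mucus, and their programme is switched on by the transcription factor FOXJ1 together with RFX factors.

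Recovered reads ranged from 7080308 to 13039989 per library, with reads for 14026 to 17018 genes. The 10 melanocyte marker genes summed to between 283772 and 515051 normalised counts per library, so every library carried the labelled tumour lineage. Ptprc, which encodes CD45, had between 1.01 and 38.5 normalised counts. Values below are normalised counts, meaning reads at transcript ends divided by a size factor for the library. They are not divided by transcript length, so they compare libraries and not genes. In sorted bulk RNA, fewer cells of a type and less RNA per cell cannot be told apart.

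Upstream sequence is shown for 4 of the 8 genes, taken from the RefSeq promoter table (GRCm38.p6). No sequence is shown for Scgb1a1, Scgb3a2, Foxj1 and Tppp3. They stand for the 3 patterns described below: reads highest in APOE2 replicates 1 and 2 (Scgb3a1, and Cyp2f2 with reads in 4 other libraries as well), a level that ran parallel to an alveolar gene (Cbr2), and near absence (Ccdc153). Each runs 5′ to 3′ on the gene's strand from 250 bases before the RefSeq start. For Scgb3a1 it ends at the base before that start, and for the others at the base before the first annotated exon. Capitals mark matches, on either strand, to CAAGTG (core of the NKX2-1 motif), TGTTTNC (forkhead core), TTGCNNAA (C/EBP core) or GTTGCC (core of an RFX site).
Scgb3a1, chr11:49663345-49663594, plus strand: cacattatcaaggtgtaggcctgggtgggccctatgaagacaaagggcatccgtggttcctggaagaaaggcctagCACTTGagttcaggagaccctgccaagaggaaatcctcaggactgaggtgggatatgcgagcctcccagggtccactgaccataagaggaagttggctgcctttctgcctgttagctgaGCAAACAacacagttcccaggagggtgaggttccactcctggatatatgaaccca
Cyp2f2, chr7:27119705-27119908, plus strand: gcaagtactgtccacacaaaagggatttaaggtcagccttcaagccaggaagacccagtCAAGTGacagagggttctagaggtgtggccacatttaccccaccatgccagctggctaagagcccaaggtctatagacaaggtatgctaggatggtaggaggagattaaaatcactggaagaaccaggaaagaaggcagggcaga
Cbr2, chr11:120732115-120732271, minus strand: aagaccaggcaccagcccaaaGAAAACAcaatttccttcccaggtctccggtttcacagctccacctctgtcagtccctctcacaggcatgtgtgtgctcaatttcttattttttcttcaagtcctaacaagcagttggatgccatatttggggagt
Ccdc153, chr9:44240427-44240675, plus strand: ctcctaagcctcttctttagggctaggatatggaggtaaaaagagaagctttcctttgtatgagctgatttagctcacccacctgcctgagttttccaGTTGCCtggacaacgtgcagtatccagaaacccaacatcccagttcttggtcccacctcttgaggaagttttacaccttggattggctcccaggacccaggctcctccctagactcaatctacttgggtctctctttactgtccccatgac

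The club cell genes Scgb3a1 and Cyp2f2 each held 1 match to the NKX2-1 core, which begins 174 and 191 bases before the start. That core is in 11.6% and 9.9% of the same windows of all 32851 promoters in the table. A forkhead core lay 55 bases before the start of Scgb3a1 and 229 bases before that of Cbr2, where 17.8% and 12.1% of windows hold one. Ccdc153 held the RFX core at 152 bases, a match found in 10.3% of such windows. None of the 4 windows held the C/EBP core. No 2 of these matches overlapped. They are matches of letters and not measured binding sites.

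The 8 genes did not behave as one group across the libraries. The 3 secretoglobins were highest in APOE2 replicates 1 and 2. Cbr2 was highest in APOE3 replicates 2 to 5, where the alveolar type 2 gene Sftpc was highest too. Foxj1 and Tppp3 had low counts in every library, and Cyp2f2 and Ccdc153 were at 0 in most. Together the 8 genes made up 2.80 to 217 RPM (reads scaled to equal library totals), with the highest share in APOE2 replicate 2 and the lowest in APOE2 replicate 3. The secretoglobins supplied 90.6% of these reads in APOE2 replicate 2 and 62.7% in replicate 1, and between 1.12% and 12.4% in the other 11 libraries. Cbr2 supplied 75.7% to 86.8% of them in APOE3.

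**Figure D1:**
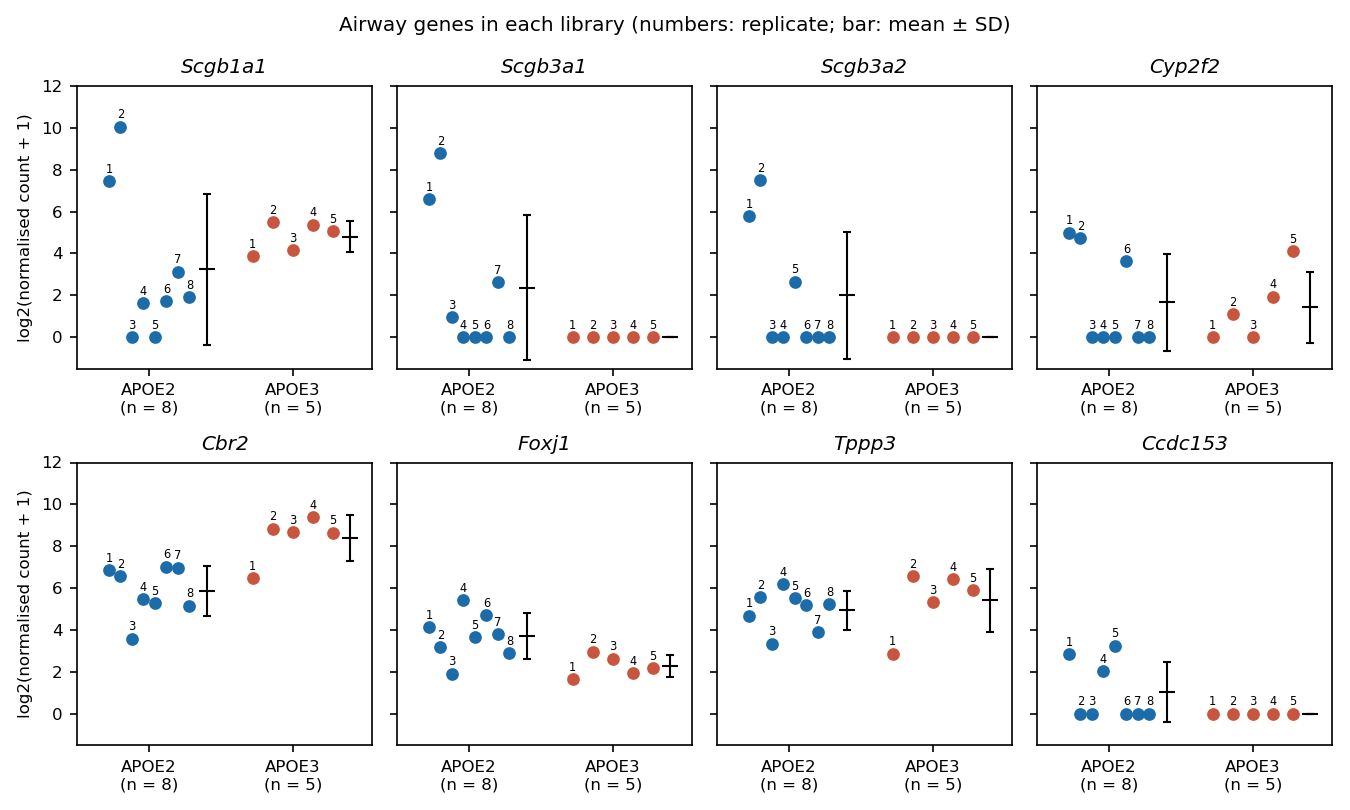
Level of each of the 8 airway genes as log2(normalised count + 1) on the vertical axis, with 1 point per library labelled by replicate number (blue, APOE2, n = 8; red, APOE3, n = 5) and the group mean ± SD in black. Replicates 1 and 2 of APOE2 stand above the rest for Scgb1a1, Scgb3a1 and Scgb3a2, whereas Cbr2 is highest in APOE3 replicates 2 to 5.

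Scgb1a1 (ENSMUSG00000024653, chr19:9083636-9087958, minus strand) encodes the club cell secretory protein uteroglobin, the classical marker of this cell type. In APOE2 hosts it ranged from 0 to 1065 normalised counts with a median of 2.50. The highest library was replicate 2 with 1055 reads, or 124 RPM (95% exact binomial interval 117 to 132), and replicate 1 followed with 174 normalised counts. The other 6 APOE2 libraries lay between 0 and 7.77. In APOE3 hosts replicates 1 to 5 had 13.7, 44.1, 16.7, 40.5 and 32.4. The APOE3 libraries thus fell in a narrow band that no APOE2 library entered: 2 APOE2 libraries lay above it and 6 below it.

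The direction of the Scgb1a1 difference depended on how the libraries were averaged. APOE2 libraries averaged 157 ± 372 normalised counts (SD, n = 8) and APOE3 libraries 29.5 ± 13.7 (SD, n = 5), 5.32-fold higher in APOE2. On the log2(value + 1) scale the mean was lower in APOE2, by −1.56 ± 1.25 (SE), and limma gave an adjusted p of 0.606. On the recovered reads, edgeR's quasi-likelihood test gave a log2 fold change of 2.42 with an adjusted p of 0.406, and DESeq2 gave −0.19 with an adjusted p of 0.973. No test placed the difference past 0.05. Without APOE2 replicates 1 and 2, which were left out because of these values, the log2 difference was −3.40 ± 0.91 (SE), as a description. The APOE2 mean was then 2.47 normalised counts, so Scgb1a1 passed the filter on low values through APOE3. This difference therefore carries no test.

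Scgb3a1 (ENSMUSG00000064057, chr11:49663610-49665118, plus strand) encodes a secretoglobin of the airway epithelium, and its upstream sequence is the first printed above. APOE2 replicate 2 had 442 normalised counts and replicate 1 had 95.4. Among the other APOE2 libraries replicate 7 had 5.18, replicate 3 had 0.919 and the remaining 4 had 0. All 5 APOE3 libraries had 0 of 39167778 reads, which allows up to 0.0766 RPM at 3 reads over the group, counting error only. The mean of 68.0 ± 155 normalised counts (SD, n = 8) in APOE2 was at least 106-fold higher than that limit. Replicates 1 and 2 held 98.8% of the APOE2 reads, however, and without them the mean was 1.02 ± 2.07 (SD, n = 6). Its fitted log2 difference was 2.37 ± 1.60 (SE) in limma and 9.13 in edgeR, values that depend on the count added to the zeros. The adjusted p was 0.523 in limma, 0.100 in edgeR and 0.350 in DESeq2. Because Scgb3a1 passed the filter on low values through the group where it is high, and gave no fit without APOE2 replicate 2, nothing is read from these tests.

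Scgb3a2 (ENSMUSG00000038791) encodes a related secretoglobin made by club cells. Its reads lay in 3 of the 13 libraries: 179 normalised counts in APOE2 replicate 2, 54.5 in replicate 1 and 5.28 in replicate 5. The other 5 APOE2 libraries and all 5 APOE3 libraries had 0, within the same limit of 0.0766 RPM for APOE3. The APOE2 mean of 29.8 ± 63.0 (SD, n = 8) was at least 46.7-fold above that limit, and 98.1% of the APOE2 reads came from replicates 1 and 2. This gene was picked for its pattern, so the values carry no test. The 3 secretoglobins therefore had the same 2 libraries at the top, replicate 2 before replicate 1.

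Cyp2f2 (ENSMUSG00000052974, chr7:27119909-27133660, plus strand) encodes a cytochrome P450 of mouse club cells that activates naphthalene. Its exons overlap Gm15883 on the opposite strand, and its mean of 6.72 normalised counts over the 13 libraries was under the minimum of 10 for the fit across all genes. Reads were found in 3 APOE2 libraries, with 30.7 normalised counts in replicate 1, 25.2 in replicate 2 and 11.3 in replicate 6. In APOE3, replicates 1 to 5 had 0, 1.13, 0, 2.82 and 16.2. The groups overlapped, with a log2 difference of 0.24 and an exact permutation p of 0.913, two-sided (0.913 after Benjamini-Hochberg adjustment over the 2 genes tested this way). Without APOE2 replicates 1 and 2 the difference was −0.82.

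Cbr2 (ENSMUSG00000025150, chr11:120729489-120732114, minus strand) encodes carbonyl reductase 2, a lung enzyme known from bronchiolar cells and also from alveolar type 2 cells. In APOE2 it ranged from 11.03 in replicate 3 to 129 in replicate 6, with a median of 68.9 normalised counts. In APOE3 replicates 1 to 5 it had 88.5, 454, 403, 666 and 401. Replicates 2 to 5 of APOE3 lay above every APOE2 library, and replicate 1 lay among the APOE2 values. APOE2 averaged 73.8 ± 47.0 (SD, n = 8) and APOE3 402 ± 206 (SD, n = 5), 5.46-fold higher in APOE3, as a description. The spread within APOE2 was 63.7% of the mean, against 11.1% from counting reads.

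Unlike the secretoglobins, Cbr2 had no excess in APOE2 replicates 1 and 2, which had 114 and 94.9 normalised counts. It ran parallel to Sftpc, the surfactant protein C gene of alveolar type 2 cells. For every 100 normalised counts of Sftpc there were 2.83 to 7.83 of Cbr2 in APOE2 (median 6.14) and 5.58 to 11.5 in APOE3 (median 6.07). Over the 13 libraries the level of Cbr2 spanned a 60.3-fold range and its ratio to Sftpc a 4.05-fold range. For Scgb1a1 the same ratio ran from 0 to 87.8 in APOE2 and from 0.249 to 1.11 in APOE3.

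Within the 8 APOE2 libraries the log2 levels of Cbr2 and Sftpc had a Pearson r of 0.96 and a Spearman rho of 0.90. Without the 2 libraries farthest from the median of Sftpc, replicates 3 and 5, r was 0.93. Foxj1 had r = 0.61 and rho = 0.57 with Sftpc, and r = 0.24 without those 2 libraries. Both genes were picked for their pattern in these libraries, so their correlations are descriptions without a test. Scgb1a1 had r = 0.53 (exact permutation p = 0.176, adjusted 0.234 over 4 genes) and rho = 0.73 (exact permutation p = 0.0485, adjusted 0.0970). Tppp3 had r = 0.13 (exact permutation p = 0.752, adjusted 0.752) and rho = −0.14 (exact permutation p = 0.752, adjusted 0.752). The adjustment over 4 genes included the picked Cbr2 and Foxj1, whose smaller p lowered the adjusted value for the r of Scgb1a1. Without the same 2 libraries r was 0.17 for Scgb1a1 (exact permutation p = 0.674) and −0.71 for Tppp3 (exact permutation p = 0.110). These comparisons were chosen after the values had been seen, and none was made within the 5 APOE3 libraries.

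**Figure D2:**
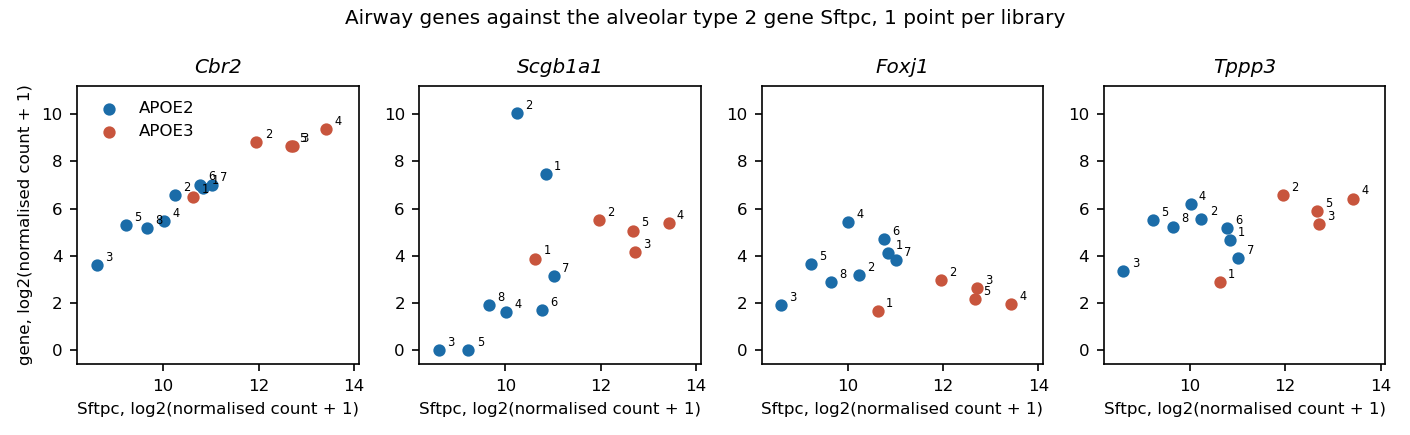
Level of Cbr2, Scgb1a1, Foxj1 and Tppp3 (vertical axis) against Sftpc (horizontal axis), both as log2(normalised count + 1), with 1 point per library labelled by replicate number (blue, APOE2; red, APOE3). The Cbr2 points of both genotypes lie along one rising band, while Scgb1a1 in APOE2 replicates 1 and 2 lies far above the other libraries at a similar Sftpc level.

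A set of 3 log2 ratios asked whether the airway genes differed between the genotypes otherwise than Sftpc did. For Scgb1a1 to Sftpc the ratio averaged −6.82 ± 3.26 (SD, n = 8) in the APOE2 libraries against −7.49 ± 0.88 (SD, n = 5) in the others. They differed by 0.67 (exact permutation p = 0.704, adjusted 0.704). That difference was −0.28 without APOE2 replicate 2. For Cyp2f2 to Sftpc the genotypes differed by 2.47 (exact permutation p = 0.0412, adjusted 0.124). It rests largely on Sftpc, since Cyp2f2 was at 0 in 7 libraries and the ratio there is set by the pseudocount. The ratio of Scgb1a1 to Cyp2f2 differed by −1.80 (exact permutation p = 0.137, adjusted 0.205). After adjustment over the 3 ratios none passed 0.05, and 1 had an unadjusted p under 0.05.

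Foxj1 (ENSMUSG00000034227, chr11:116330704-116335399, minus strand) encodes the forkhead factor that switches on the genes of motile cilia. In APOE2 it ranged from 2.76 in replicate 3 to 42.0 in replicate 4, with a median of 12.3 normalised counts. The APOE3 replicates 1 to 5 had 2.11, 6.78, 5.20, 2.82 and 3.47. Of the 8 APOE2 libraries 6 lay above the highest APOE3 library and 2 lay within the APOE3 range. The APOE2 mean was 15.6 ± 12.6 (SD, n = 8) against 4.08 ± 1.90 (SD, n = 5), from 131 reads in all of APOE2 and 19 in all of APOE3. The spread within APOE2 was 80.6% of the mean, against 24.7% from counting. The 3.83-fold difference between the means is a description, because Foxj1 was picked for it. Its highest libraries were APOE2 replicates 4 and 6, not the 2 libraries rich in secretoglobin reads. Per 100 normalised counts of Sftpc there were 0.625 to 4.05 of Foxj1 in APOE2 and 0.0258 to 0.171 in APOE3. Sftpc itself averaged 1212 normalised counts in APOE2 and 5949 in APOE3, and this enters both ranges. Nothing is read from their separation.

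Tppp3 (ENSMUSG00000014846, chr8:105467493-105471526, minus strand) encodes a tubulin-binding protein that is abundant in ciliated cells and also made by other cells. It was read in every library. The APOE2 values ran from 9.19 in replicate 3 to 71.6 in replicate 4 (median 35.8), and the APOE3 replicates 1 to 5 had 6.32, 93.8, 39.5, 84.7 and 59.0. The APOE2 values all lay within the APOE3 range. The means were 35.2 ± 19.96 in APOE2 and 56.7 ± 35.3 in APOE3 (SD). The log2 difference of −0.48 ± 0.57 (SE) did not pass in limma (adjusted p = 0.752), edgeR (adjusted p = 0.614) or DESeq2 (adjusted p = 0.587).

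Ccdc153 (ENSMUSG00000070306, chr9:44240676-44247306, plus strand), a coiled-coil gene used as a marker of ciliated cells, was close to absent. It had 8.45 normalised counts in APOE2 replicate 5, 6.13 in replicate 1 and 3.07 in replicate 4, from 20 reads in all. The other 10 libraries had 0. The log2 difference was 1.01, with an exact permutation p of 0.231, two-sided (0.462 after adjustment over the 2 genes tested this way). The APOE2 mean of 2.21 ± 3.37 (SD, n = 8) was at least 3.45-fold above the limit of 3 reads over the APOE3 group. Within APOE2, Foxj1 and Tppp3 were both highest in replicate 4 and lowest in replicate 3, while Ccdc153 had too few reads to order the libraries.

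Of the 8 genes, 6 passed the filter on low values, and Scgb3a1 and Scgb3a2 passed it through APOE2 replicates 1 and 2. Leaving these aside with the picked genes, Scgb1a1 and Tppp3 remained for the fit. Limma called 0 of these 2, where it called 98 of all 12403 genes, 0.790%. At an unadjusted p under 0.05 it had 0 of the 2, against 14.2% of all genes. The edgeR and DESeq2 tests also called 0 of the 2, with 0 at an unadjusted p under 0.05. None of the 8 genes had groups that did not overlap, a state that 0.984% of all tested genes had. APOE2 replicate 2 was the highest library for 3 of the 8 and replicate 1 for 1, where they were the highest for 6.06% and 7.02% of all 22656 genes. One of the 3 is Scgb3a2, picked for its pattern, so nothing is read from this count. Of the 98 genes called, 51 (0.411% of those tested) were higher and 47 lower in APOE2, and with equal library totals 38 were higher and 54 lower.

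Once the genotype means were removed, the 8 genes fell into looser and tighter pairs over the 13 libraries. The secretoglobins were closest, with r = 0.95 for Scgb1a1 and Scgb3a1, 0.90 for Scgb3a1 and Scgb3a2, and 0.86 for Scgb1a1 and Scgb3a2. Cyp2f2 had r = 0.74 with Scgb1a1. Cbr2 had 0.54 with Scgb1a1, 0.38 with Scgb3a1 and 0.93 with Sftpc. Foxj1 and Tppp3 had 0.54 with each other, and each had 0.55 with Cbr2. Foxj1 had 0.05 with Scgb1a1. These are descriptions over libraries that share a size factor for all genes, and the values of the secretoglobins rest on APOE2 replicates 1 and 2.

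**Figure D3:**
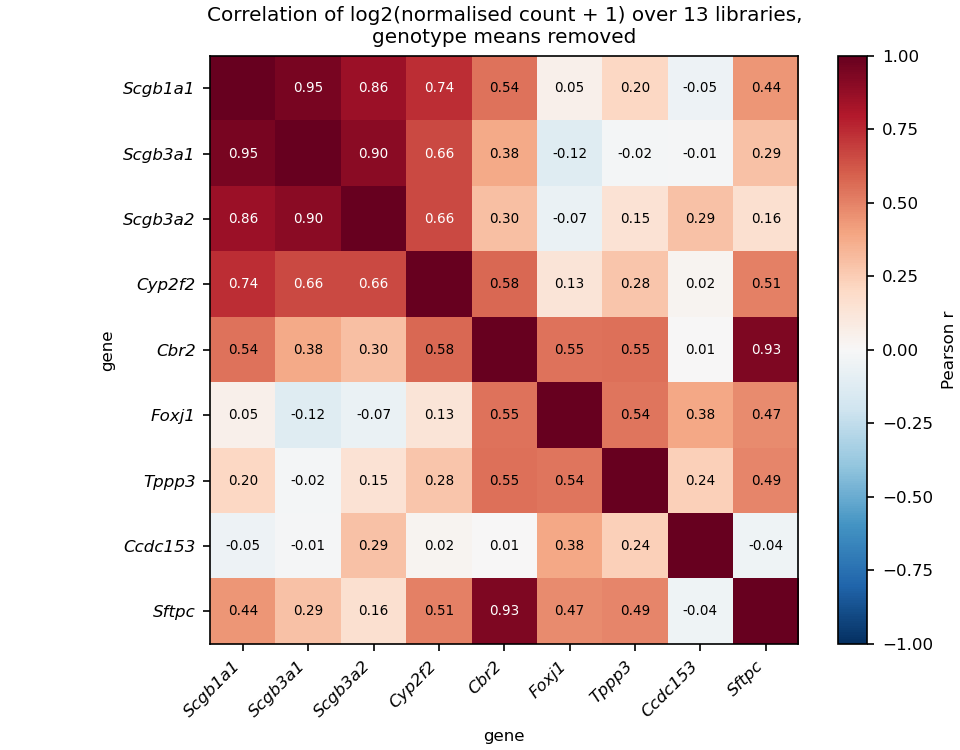
Pearson r between the 8 airway genes and Sftpc over 13 libraries, computed on log2(normalised count + 1) after the mean of each genotype was removed (red, positive; blue, negative). The 3 secretoglobins form a block of 0.86 to 0.95, and the highest value of Cbr2, 0.93, is with Sftpc.

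Genes with the most similar pattern were sought among the 11230 genes averaging 20 normalised counts or more, again by r over the 13 libraries with genotype means removed. For Scgb1a1 the closest was Scgb3a1 (0.95), followed by Cspg4 (0.88), Gm37893 (0.86), Mrpl36 (0.82) and Dock11 (0.82). For Cbr2 the closest were Wfdc2 (0.95) and then 4 alveolar type 2 genes: Sftpc (0.93), Sftpa1 (0.93), Sftpb (0.92) and Lyz2 (0.92). For Foxj1 the 5 closest had r from 0.84 to 0.90, led by Zfyve27, and for Cyp2f2 from 0.80 to 0.86, led by Snhg12. Cbr2 was thus the gene of these 4 whose closest genes were mostly alveolar type 2 markers.

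Other secretory genes of the airway were read from a list of 18, of which 17 were in the table and 5 were past the filter. Of the 5, Bpifa1 (18.2 normalised counts in APOE2 and 0 in APOE3) and Retnla (33.3 and 8.59) passed through APOE2. Limma called 1 of the 5, Wfdc2, which was lower in APOE2. Wfdc2 encodes a secreted protease inhibitor of airway and other epithelia. It averaged 108 ± 70.5 normalised counts (SD, n = 8) in the APOE2 hosts against 451 ± 204 (SD, n = 5) in the APOE3 hosts, a log2 difference of −2.26 ± 0.43 (SE) with an adjusted p of 0.0175. All 8 APOE2 libraries lay below 4 of the 5 APOE3 libraries, and APOE3 replicate 1, with 187.5, lay among the highest APOE2 values. Wfdc2 lost its call without APOE3 replicate 3 or replicate 4. Among the 12403 genes 0.379% were called lower in APOE2.

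The other 3 genes of that list with the highest means did not pass in limma. Slpi, a secreted protease inhibitor, had 47.9 ± 28.6 against 93.2 ± 26.5 normalised counts (SD; adjusted p = 0.195). Hp, which encodes haptoglobin, had 25.1 ± 21.4 against 79.9 ± 40.7 (SD; adjusted p = 0.195), and it was called lower without APOE3 replicate 1. Retnla, a resistin-like gene of inflamed airway and macrophages, had 33.3 ± 42.1 against 8.59 ± 11.1 (SD; adjusted p = 0.464), with its highest value, 126, in APOE2 replicate 2. The median log2 difference of the 5 genes past the filter was −1.14, beside 0.000365 for all genes tested. That median includes Bpifa1 and Retnla, which passed the filter through APOE2.

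Over all 17 genes of this list in the table, past the filter or not, the libraries with the highest level were counted. Of the 17, 8 were highest in APOE2 replicate 2, as were 6.06% of all 22656 genes. For 7 of the 17 the reads lay in APOE2 replicates 1 and 2 and nowhere else, as they did for 3.55% of all genes. Of the 7, Chad had only 1.01 normalised counts, in replicate 2. These 2 libraries had already stood out through the secretoglobins of the same data, so nothing is read from these counts. Bpifa1, an antimicrobial protein of the upper airway, had 129 normalised counts in replicate 1 and 17.2 in replicate 2. Replicate 2 had 39.4 of the mucin gene Muc5b, 37.3 of Agr2, a chaperone of mucin-making cells, 29.3 of Bpifb1 and 28.3 of the trefoil factor gene Tff2, while replicate 1 and the other 11 libraries had 0. Clca1, a goblet cell gene from another list, had 148 in replicate 2 and 0 in the other 12 libraries. These genes are named because of their place in the libraries, after their values were seen.

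**Figure D4:**
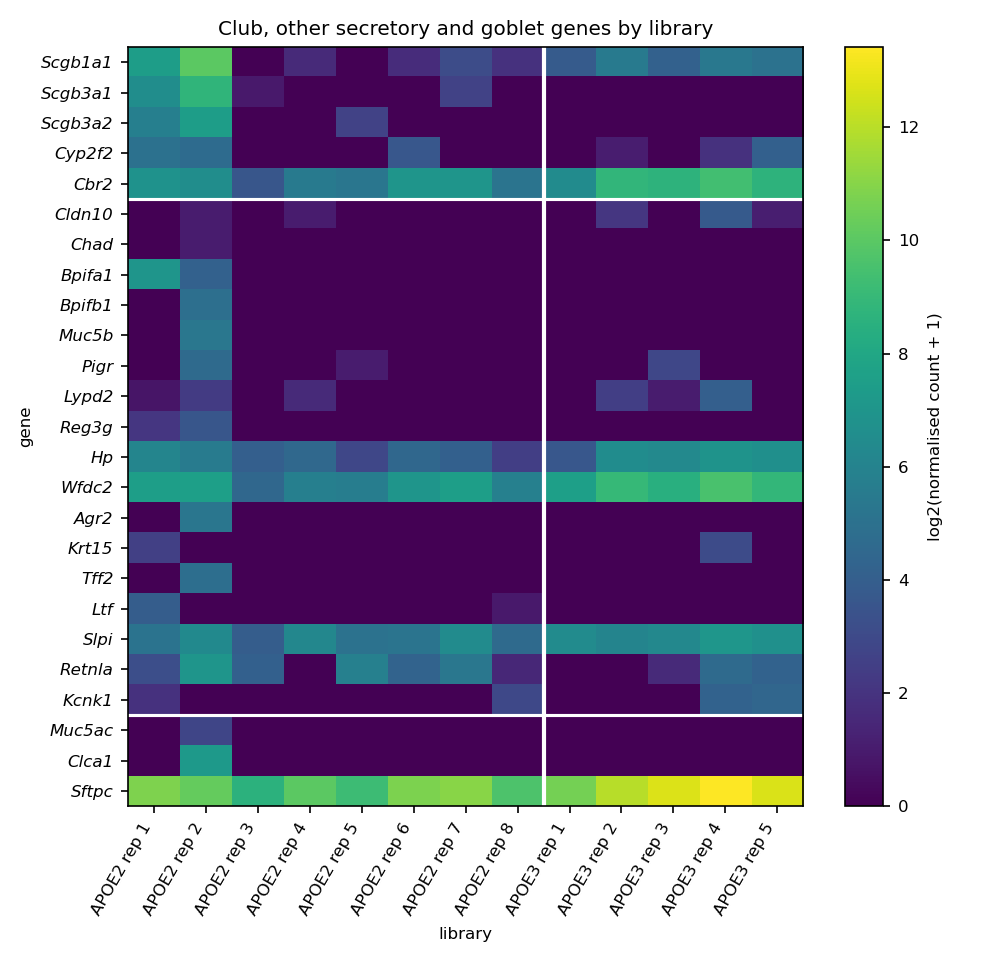
Heat map of log2(normalised count + 1) for 5 club cell genes (top), 17 other secretory genes (middle), and the goblet genes Muc5ac and Clca1 with Sftpc (bottom), by library, with APOE2 left and APOE3 right of the white line. APOE2 replicate 2 holds reads of Muc5b, Agr2, Bpifb1, Tff2 and Clca1 that are at 0 in the other libraries, while Cbr2, Wfdc2 and Sftpc are brightest in APOE3 replicates 2 to 5.

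Enzymes of club cells other than Cyp2f2 and Cbr2 showed no call. Of 24 listed, 23 were in the table and 14 past the filter, and limma called 0 of the 14, with 2 at an unadjusted p under 0.05. Of these 2, Gsta3 (6.96 normalised counts in APOE2 and 19.2 in APOE3) passed the filter through APOE3. The edgeR and DESeq2 tests called 0 as well. The 4 with the highest means were Gsta4, a glutathione transferase (1121 ± 149 against 945 ± 238 normalised counts, SD), Ephx1, an epoxide hydrolase (546 ± 93.1 against 672 ± 229), Por, the electron donor of the P450 enzymes (508 ± 65.8 against 429 ± 93.1), and Gsto1, another glutathione transferase (389 ± 113 against 343 ± 71.0). The adjusted p in limma lay between 0.412 and 0.738, and each was read in every library. In APOE2 replicate 5, where Scgb1a1, Scgb3a1 and Cyp2f2 had 0, Gsta4, Ephx1, Por and Gsto1 had 1006, 469, 544 and 332 normalised counts. The cells that these 4 came from were not tested, so their levels are not read as a result about club cells. The median log2 difference of the 14 was −0.58.

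Regulators of the secretory lineage gave a similar picture. Of 14 listed, 13 were in the table and 9 past the filter. All 9 had a negative log2 difference, as did 49.9% of all genes tested. Nkx2-1, Cebpa and Foxa2 (4.95 normalised counts in APOE2 and 24.4 in APOE3) passed the filter through APOE3, which set their sign. Nothing is read from the count of 9. Limma called 0 of the 9, with 2 at an unadjusted p under 0.05, Nkx2-1 and Cebpa, both lung epithelial transcription factors. The edgeR test called 0, and DESeq2 called the same 2. Over all 12403 genes DESeq2 called 158 lower in APOE2. Nkx2-1 averaged 6.72 normalised counts in APOE2 and 35.4 in APOE3, and Cebpa 5.16 and 42.8. Both passed the filter through APOE3, so nothing is read from their calls. The 4 with the highest means were the Notch target Hes1 (147 ± 41.9 against 215 ± 108), Cebpd (97.8 ± 35.7 against 169 ± 79.2), the receptor gene Notch2 (107 ± 40.4 against 122 ± 39.9) and the forkhead gene Foxa1 (20.02 ± 14.0 against 49.9 ± 32.0 normalised counts, SD). In limma their adjusted p lay between 0.378 and 0.763. Which cells these 4 came from was not tested.

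The remaining genes of ciliated cells were mostly near the limit of detection. Of 65 genes for structures of motile cilia, 50 were in the table, 34 of these had a mean under 10 normalised counts, and 29 had reads in at most 6 of the 13 libraries. In APOE3, 13 of the 50 were at 0, among them the dynein heavy chain genes Dnah5 and Dnah9 and the central-pair gene Hydin, each with reads in 1 APOE2 library. In APOE2, 2 of the 50 were at 0, Spag16 and Cfap44, each with reads in 1 APOE3 library. APOE3 had 5 libraries and APOE2 had 8, so a gene near the limit of detection is more often at 0 in APOE3. The share of all genes at 0 in each group is not given, and nothing is read from these counts. Limma called 0 of the 16 past the filter, with 0 at an unadjusted p under 0.05, and edgeR and DESeq2 called 0. Their median log2 difference was −0.0045. The 4 with the highest means were read in every library: the tubulin gene Tubb4b (833 ± 120 against 831 ± 123 normalised counts, SD), the dynein intermediate chain gene Dnaic1 (730.3 ± 114 against 809 ± 170.4), Mns1 (316 ± 32.7 against 325 ± 79.1) and Morn2 (210.5 ± 69.0 against 307 ± 144). In limma their adjusted p lay between 0.446 and 0.994. Which cells these 4 came from was not tested.

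Factors that act with FOXJ1 in ciliated cells were also listed, 13 genes with 10 in the table and 6 past the filter. Limma called 0 of the 6, with 0 at an unadjusted p under 0.05, and edgeR and DESeq2 called 0. Mcidas, which starts the multiciliated programme, and Trp73 had 0 reads in APOE3 and reads in 1 APOE2 library each, from which nothing is read. The 4 with the highest means also serve the cell cycle or centrioles of other cells: E2f5 (216 ± 48.1 against 228 ± 63.9 normalised counts, SD), Cep152 (205 ± 36.3 against 238 ± 21.1), Plk4 (186 ± 52.7 against 140.0 ± 59.3) and E2f4 (105 ± 17.1 against 124 ± 67.7), with adjusted p in limma between 0.401 and 0.949.

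Markers of neighbouring cell types are given beside Cbr2 and Wfdc2. The 15 alveolar type 2 genes summed to 1589 to 7622 normalised counts in APOE2 and 6390 to 38758 in APOE3, with 8 of 15 called lower in APOE2 by limma, 13 by edgeR and 11 by DESeq2. Over all 12403 genes limma called 47 lower, edgeR 77 and DESeq2 158. Sftpb had 101 ± 68.4 against 650.0 ± 369.7 (SD), and the alveolar type 1 gene Ager, which did not pass in limma (adjusted p = 0.154), had 26.8 ± 18.1 against 81.4 ± 36.3. The 11 alveolar type 1 genes summed to 427 to 681 and 584 to 1565, with 0 of the 8 past the filter called in limma (5 at an unadjusted p under 0.05), 2 in edgeR and 1 in DESeq2. The 11 pan-epithelial genes in the table summed to 22.1 to 112 and 115 to 570, with 1 of the 3 past the filter called lower by limma and 3 each by edgeR and DESeq2. Cldn3, 1 of these 3, had at most 8.08 normalised counts in APOE2 and 7.37 to 133 in APOE3. It passed the filter through APOE3, so nothing is read from its calls. Epcam, the epithelial surface gene, was below the filter and was not tested, with 0 in 6 APOE2 libraries and in 1 APOE3 library and at most 15.8 in the others. The part of these cells in the Cbr2 and Wfdc2 differences was not tested.

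Lists of non-epithelial cells gave their own ranges. The 14 endothelial genes summed to 551 to 789 in APOE2 and 728 to 2063 in APOE3, with 2 of 13 called lower by limma, 3 by edgeR and 7 by DESeq2. Emcn, 1 of these 7, passed the filter through APOE3, with at most 10.1 in APOE2 and 15.8 to 38.2 in APOE3. Of all 12403 genes limma called 47 lower, edgeR 77 and DESeq2 158. The 13 fibroblast and smooth muscle genes summed to 214 to 670 and 452 to 2789, with 2 of 8 called lower by limma, and 2 each by edgeR and DESeq2. The 15 leukocyte genes summed to 203 to 743 and 290 to 564, with 0 of 6 called in limma, edgeR or DESeq2 and 0 at an unadjusted p under 0.05, and they were highest in APOE2 replicate 1. The 5 mesothelial genes summed to 323 to 579 and 341 to 557, with 0 of 3 called in limma, edgeR or DESeq2 and 0, 1 and 1 at an unadjusted p under 0.05. Of the list for basal, goblet, neuroendocrine and tuft cells 11 of 15 were in the table. Its sum of 1287.2 to 2261 came mostly from Dclk1. Muc5ac, Clca1, Chga and Trpm5 were at 0 in APOE3, and Calca and Resp18 were at 0 in APOE2. Each of these genes at 0 in a group had reads in only 1 library.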

How the data were processed

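The 13 RNA libraries were prepared with QuantSeq forward chemistry, so reads come from the 3′ ends of transcripts. The authors deposited 1 table of normalised counts (unit signal), and STAR 2.6.0, featureCounts, DESeq2 1.28.1 and mm10 are named per the submitters' processing notes. The annotation and strand setting are not given in the sources used here. In each column 100% of nonzero values were whole multiples of 1 step (tolerance 0.01), so reads were recovered by division. Symbols and positions came from GENCODE M21 on GRCm38, with 22649 of 22656 identifiers matched. Genes with a mean of at least 10 were compared by limma 3.58.1 (R 4.3.3) on log2(value + 1) with a variance trend, two-sided, with Benjamini-Hochberg adjustment and a threshold of 0.05, and tested on simulated data. Fold changes on that scale understate those of low genes. Single values used exact permutation of the genotype labels (smallest p 0.000777). Alternatives were other pseudocounts, filters, scalings and variance models, a replicate block, each library left out, and edgeR 4.0.16 and DESeq2 1.42.0 on reads. Members and lists were chosen with earlier results of these data known. Named list genes are the 4 with the highest mean and those past the threshold. Intervals and limits from reads cover counting error only.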

Additional observations from a re-analysis of the deposited data

Results flagged for a closer look

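Dixon's criterion at 95%, which asks how far the top or bottom library stands from the next relative to the spread from lowest to highest, was applied to each group for the 8 airway genes and the 3 log2 ratios. In 19 screens 2 values stood apart, where independent screens would give about 0.95 by chance. The screens are not independent, since the ratios reuse genes, and Cbr2, with 1 of the 2 values, was picked for its pattern. Nothing is read from this count. Cbr2 in APOE3 replicate 1 had a log2 value of 6.48, with 8.65 as the next lowest. The same library had the lowest APOE3 values of Sftpc (1585 normalised counts), Wfdc2 (187.5) and Hp (11.6). The log2 ratio of Scgb1a1 to Cyp2f2 in APOE3 replicate 5 was 0.96, with 3.44 as the next lowest. It rests on 28 reads of Scgb1a1 and 14 of Cyp2f2.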

How the results depend on the processing

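The count of 98 genes called over the whole table was the least stable value: 9 with no filter, 43 with the replicate block, 0 with limma without the trend (1599 at an unadjusted p under 0.05), 311 with DESeq2, 20 without APOE2 replicates 1 and 2 (chosen after seeing the data), and 9 to 228 with 1 library left out, lowest without APOE3 replicate 3 and highest without APOE3 replicate 1. Of the other club and ciliated genes, limma called 1 (Wfdc2). The count was 0 with no filter, 0 without the trend and 0 with robust variance, 3 with DESeq2, and 0 to 2 with 1 library left out. The DESeq2 count includes Nkx2-1 and Cebpa, which passed the filter through APOE3. Scgb1a1 changed sign in edgeR (2.42). With 1 library left out, Cyp2f2 ran from −0.24 to 0.91, negative in 5 of 13 comparisons, and it was −0.82 without APOE2 replicates 1 and 2. The ratio of Scgb1a1 to Sftpc ran from −0.28 to 1.02 and was −1.004 without those 2 libraries. The ratio of Cyp2f2 to Sftpc ran from 2.004 to 3.04 and passed with a pseudocount of 5 (2.51) and with Sftpb in place of Sftpc (2.98). The ratio of Scgb1a1 to Cyp2f2 ran from −2.40 to −1.30. The correlation of Tppp3 with Sftpc ran from −0.65 to 0.44, and that of Cbr2 from 0.92 to 0.98. Replicate numbers are not stated to pair the mice, and deviations of same-numbered libraries correlated from −0.063 to 0.014 over 5 pairs, none with its own number as the best match. The block moved the log2 difference of Scgb1a1 to −0.97 and changed the call of no gene tested among the 8. Without APOE2 replicate 2, Scgb3a1 and Scgb3a2 fell below the filter and gave no value, as did Foxj1 without APOE2 replicate 4. The causes of these changes were not tested.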

Other observations

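The table held 4 secretoglobin genes beside the 3 followed above, and 3 of the 4 had their reads in another library. In APOE2 replicate 5 Scgb2b27 had 818 normalised counts, Scgb1b27 had 693 and Scgb2b26 had 151. In the other 12 libraries Scgb1b27 and Scgb2b26 had 0, and Scgb2b27 had 1.13 in APOE3 replicate 2 and 0 elsewhere. These secretoglobins belong to the androgen-binding protein group of rodents, known from salivary and lacrimal glands. The same library had 138 normalised counts of Pip and 124 of Prol1, genes of secreted gland proteins, which had 0 in the other 12. Its Scgb1a1 and Scgb3a1 were 0, and its Scgb3a2 was 5.28. Scgb1c1, the fourth, had 19.8 in APOE3 replicate 4, 6.90 in APOE2 replicate 7, 0.681 in APOE2 replicate 1 and 0 elsewhere. These genes were chosen after their values were seen.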
